A study of Mus musculus with 4 samples.

Results

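The regions described here are the 785 regions (8.49%), of 9243 in the deposited m6ARIP-seq table of interscapular brown adipose tissue (iBAT), whose center the authors' annotation places in a 5′ UTR or a first exon and in no last exon or 3′ UTR. Membership among the 9243 rests on position alone and uses no measured enrichment. Each of the 9243 was itself called as a peak in at least 1 genotype. A 5′ UTR label was given to 414 of these regions and a first-exon label to 380, with 9 carrying both, and 88 also carried a label such as an intron of another gene. They covered 879 gene identifiers with 807 symbols, and 107 of them lay over several genes. They were found on 20 chromosomes, led by chromosome 11 with 89 regions, chromosome 7 with 74 and chromosome 2 with 64, with 3 more on unplaced contigs. BKO mice carried *Mettl3* flox/flox with *Ucp1*-iCre, a recombinase expressed together with *Ucp1* that removes the floxed exons of *Mettl3*. Their controls were *Mettl3* flox/flox mice without it, so both genotypes carry the floxed allele. All mice were C57BL/6, kept on normal chow and 8 weeks old. The recombinase acts only in cells that express *Ucp1*, so endothelial, immune and other cells of BKO iBAT keep METTL3. For each genotype RNA from several mice was pooled, poly(A)+ RNA was fragmented, and 1 library was made after capture with an m6A antibody (IP) and 1 before capture (input).

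METTL3 is the catalytic subunit of the complex that writes N6-methyladenosine (m6A) on mRNA, mostly in a DRACH sequence context and mostly in long internal exons, around stop codons and in 3′ UTRs. Antibodies against m6A also bind m6Am, the methylated adenosine next to the mRNA cap, which is made by PCIF1 and not by METTL3. A region close to a transcription start can therefore hold either modification, and short-fragment capture does not tell them apart.

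Levels are given as RPM, the read count plus 1 scaled to the library total. The totals behind these values were 13.7 M reads for the BKO IP, 13.4 M for the BKO input, 8.31 M for the flox/flox IP and 8.83 M for the flox/flox input. All regions together held 28.7% of the BKO IP reads and 48.4% of the flox/flox IP reads. RPM is a share of its library. A value higher in BKO, or a ratio made from such values, is therefore relative and need not mean more modified RNA. Each genotype had 1 library of each kind, so no difference below has a replicate check, and the 95% intervals of single regions cover counting error only. Intervals of shares and medians describe the spread over regions taken as independent units. No region of the table carried the symbol *Mettl3*, so the deletion was not checked in these values. Of the brown adipocyte markers *Ucp1*, *Cidea*, *Cox7a1*, *Cox8b*, *Elovl3*, *Dio2*, *Ppargc1a* and *Kcnk3*, 6 of 8 had a region, with a summed input of 632 RPM in BKO and 663 RPM in flox/flox iBAT. Only 2 of these 7 regions were higher in BKO, against 73.3% of all regions. The 9 regions over the adipocyte markers *Adipoq*, *Fabp4*, *Plin1*, *Pparg* and *Lipe* summed to 3543 RPM in BKO and 1630 RPM in flox/flox iBAT, and 7 were higher. For fibroblast markers, 3 of 5 had a region, with 479 RPM in BKO and 132 RPM in flox/flox iBAT, and all 3 regions were higher. Skeletal muscle genes differed widely in the input: the 20 regions over a list of muscle genes summed to 1096 RPM in BKO and 39.1 RPM in flox/flox iBAT, and all 20 were higher in BKO. A region is listed only where a peak was called, so a gene abundant in 1 genotype alone can enter through that genotype. In bulk tissue, fewer cells of a type and less RNA per cell cannot be told apart.

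Most of these regions sat just behind a gene start. The center of 585 of them (74.5%, 95% Wilson interval 71.4 to 77.4%) was within 300 bases of the closest annotated start, against 4.95% of the other regions. The median center lay 132 bases downstream, 349 regions contained the start itself, and 96 lay more than 1000 bases downstream, where a 5′ UTR exon or the first exon of another transcript was annotated. They were narrow, with a median width of 270 bases (190 to 1439) against 354 bases for the others. Nearness to a start follows largely from the labels that chose the regions and is a description of them.

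**Figure D1:**
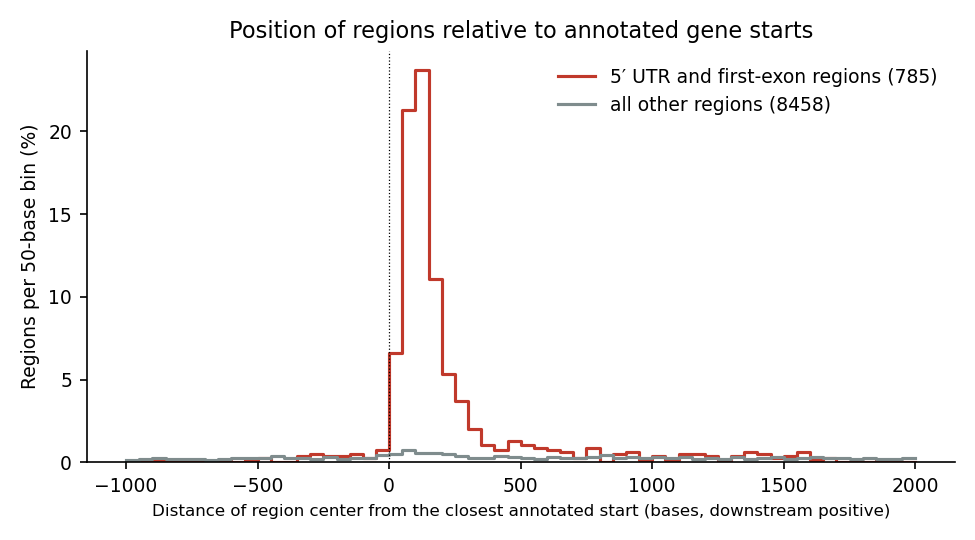
Distance of region centers from the closest annotated start (horizontal axis, bases, downstream positive) against the percent of regions in each 50-base bin (vertical axis), for the 785 regions of the 5′ UTR and first exons (red) and the 8458 others (grey). The red line peaks within the first 200 bases behind the start, around the median of 132 bases; centers beyond the axis (66 and 6993 regions) are not drawn.

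The RefSeq table of transcription starts (build GRCm38.p6) had an entry on the same chromosome for 588 of the regions, and in 259 the RefSeq start lay inside the region. Shown next are 30 bases around the start of the 5 such regions with the highest and the 5 with the lowest BKO to flox/flox ratio among those where both inputs held 20 reads or more, because these are the transcript ends at which the 2 genotypes differed most. Each is written 5′ to 3′ on the transcribed strand, and the capital marks the first transcribed base.
Cdkn1a (chr17:29093759-29093788, plus strand, higher in BKO): cgacgccaacTgcagcagccgagaggtgtg
Copz2 (chr11:96849866-96849895, plus strand, higher in BKO): cggcgctgtcAgtgcaggcagcgagcggaa
Idh2 (chr7:80115331-80115360, minus strand, higher in BKO): gttgggtcccAgccaccagggccagcctag
Arxes2 (chrX:135993810-135993839, plus strand, higher in BKO): cgagcccggcAttccgcgcgagccagagga
Ppp2ca (chr11:52098814-52098843, plus strand, higher in BKO): ggcggccgccAttacagaaagccgagtccc
Slc26a6 (chr9:108854033-108854062, plus strand, lower in BKO): gtctgatcttGcacatcctagcggtggagc
Ndufa1 (chrX:37191219-37191248, minus strand, lower in BKO): gcgaacgccaGtcacttttgggcccccaca
Fcor (chr8:3672372-3672401, minus strand, lower in BKO): tgcacgcaccAgaccccgggtttgcaagga
Ndufb7 (chr8:83566748-83566777, plus strand, lower in BKO): ctgaaggggcAgtgcttccaggtgggagcg
Pabpc4 (chr4:123282901-123282930, plus strand, lower in BKO): aaaaagaaaaGaaaagaagaggaaaaaaaa

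Over the 259 starts, the first base was A in 30.5% and G in 47.1%, against 34.4% and 35.6% of all 32851 RefSeq starts. The first base was A in 35% of the 100 starts in regions at least 2-fold higher in BKO and in 28.1% of the 57 in regions at least 2-fold lower. The first 50 transcribed bases were searched on the transcribed strand for GGAC, GGACT (each of which also holds GGAC) and CCATG. GGAC was found in 22.4%, GGACT in 5.41% and CCATG in 6.95% of the 259, against 18.9%, 5.76% and 5.57% of all starts. A match is a description of these letters, and its absence from this window says nothing of the rest of a region. Of the 10 starts printed, that of *Arxes2* had GGAC in its first 50 bases and none had GGACT or CCATG. The median GC content of these 50 bases was 64% in the 259 regions and 56% at all starts. In the 87 regions with the highest GC content (70 to 92%) the median log2 BKO to flox/flox ratio of enrichment was 1.21, against 0.35 in 86 regions with 62 to 70% and 0.44 in 86 with 26 to 62%, and the part of GC content in the ratios was not tested.

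Most of these regions were called as peaks in BKO iBAT, and fewer in flox/flox iBAT, where reads were also fewer. Of the 785 regions, 535 were called in BKO only (32.4% of all regions were), 216 in both genotypes (38.2% of all) and 34 in flox/flox only (29.4% of all). Where both inputs held 20 reads or more, 117 of 275 were called in BKO only, 146 in both and 12 in flox/flox only, against 822, 2665 and 1036 of all 4523 such regions. Over all depths they made up 11.5% (10.8 to 12.3%) of the 6523 listed regions called in BKO. In flox/flox iBAT they made up 4.0% (3.54 to 4.52%) of the 6247 listed regions called. Every listed region had an IP level above its input level in both genotypes. A peak without such enrichment in the other genotype would be absent from these counts and shares, and from the ratios below. In reads, they held 2.35% of the BKO IP library and 1.47% of the flox/flox IP library, and 0.781% and 0.427% of the inputs. The median read number per region was 202 for the IP and 48 for the input of BKO iBAT, against 36 and 12 for those of flox/flox iBAT. Depth thus limits the flox/flox values most. No flox/flox input read was counted in 90 regions and fewer than 20 in 509 (64.8%).

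The fold enrichment of a region is its IP RPM divided by its input RPM, and the log2 ratio compares the enrichment of BKO with that of flox/flox iBAT. The median fold enrichment of the 785 regions was 4.04 in BKO and 2.48 in flox/flox iBAT, whereas that of all regions was 3.05 in BKO and 5.91 in flox/flox iBAT. The median log2 ratio was 0.62 (95% order-statistic interval 0.49 to 0.74), against -1.05 over all regions and -1.29 over the 5569 regions in last exons and 3′ UTRs. It was above 0 in 513 regions (33.4% of all regions) and below 0 in 272 (66.6% of all). At least 2-fold higher were 305 (18.6% of all) and at least 2-fold lower 152 (50.8% of all). The 95% counting interval lay above 0 in 169 regions (12% of all) and below 0 in 109 (44.6% of all). Where both inputs had at least 20 reads, the median over 275 regions was 0.41 (0.17 to 0.56), against -1.07 over all 4523 such regions. Of the 275, 82 were at least 2-fold higher (29.8%, against 13.8% of the 4523) and 51 at least 2-fold lower (18.5%, against 51.5%). With at least 100 reads in both inputs, the median over 73 regions was 0.24, and its interval (-0.14 to 0.53) included 0.

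Both the IP and the input moved. The IP level was higher in BKO in 676 regions (46.5% of all), with a median log2 ratio of RPM of 1.87 against -0.27 over all regions. The input level was higher in 675 (73.3% of all), with a median of 1.35 against 0.80 over all regions. In the 305 regions at least 2-fold higher, the median log2 ratio was 2.95 for the IP and 0.98 for the input. In the 152 at least 2-fold lower it was 0.03 for the IP and 1.97 for the input. Both sets were chosen on a ratio that a higher input lowers, so these IP and input values are partly built into the choice. Reads were also few: the median flox/flox input was 10 reads in each set, against 32 in BKO for the 305 and 62 for the 152. The thresholds had no gap around them, as seen where both inputs held 20 reads or more. *Atp6v1g1*, a subunit of the proton pump of lysosomes, was just inside 2-fold higher with 1.01, and *Rgs2*, a regulator of G protein signalling, was just outside with 0.99. *Uqcrh*, a complex III subunit, was just inside 2-fold lower with -1.04, and a region over 3 genes (*Gm20388* among them) was just outside with -0.995.

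The ratios also differed by the genotype in which a peak was called, and a call is itself made from the IP and input. The 535 regions called in BKO only had a median log2 ratio of 1.10 (0.98 to 1.19). That of the 2461 other regions called in BKO only was 0.99 (0.95 to 1.05). The 216 called in both genotypes had a median of -0.64 (-0.86 to -0.42), against -1.30 (-1.36 to -1.22) for the 3311 others. The 34 called in flox/flox only had a median of -2.06 (-3.14 to -1.41), against -2.51 (-2.57 to -2.43) for 2686 others. The 5′ median was the higher one in each class, by less than over all classes together. The intervals overlapped except for regions called in both genotypes.

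**Figure D2:**
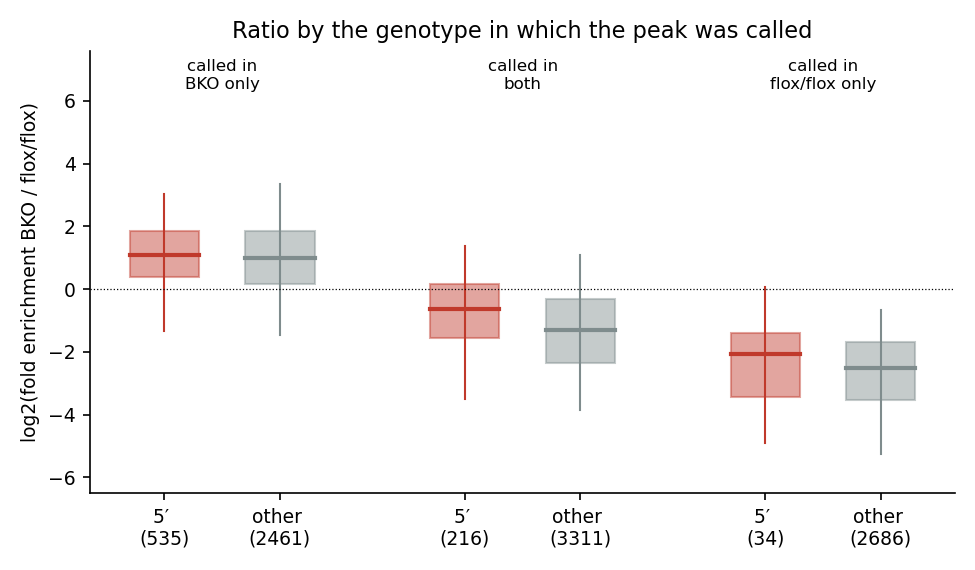
Log2 BKO to flox/flox ratio of fold enrichment (vertical axis) for 5′ UTR and first-exon regions (red) and other regions (grey), split by the genotype in which the peak was called, with the number of regions in parentheses. Thick lines are medians, boxes the middle 50% of regions and thin lines the 5th to 95th percentiles; red medians are 1.10, -0.64 and -2.06, grey medians 0.99, -1.30 and -2.51.

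The 10 regions with the highest ratios where both inputs held 20 reads or more lay over *Gsk3a*, *Gnai2*, *Cdkn1a*, *Copz2*, *Twnk*, *Efnb1*, *Kank3*, *Ppp1ca*, *Cnnm3* and *Idh2*. Their log2 ratios were 2.31 to 2.81, and 8 of them were called in BKO only. All 10 had a higher IP level in BKO (log2 ratio 1.07 to 3.14), while the input was higher in 5 and ranged from -1.28 to 0.47. *Gsk3a*, glycogen synthase kinase 3 alpha, had 34.6 RPM in the IP and 4.33 RPM in the input of BKO iBAT, against 7.10 and 6.23 RPM in flox/flox iBAT, for a log2 ratio of 2.81 (1.87 to 3.74). The inputs were close and the BKO IP stood apart from the other 3 libraries. *Gnai2*, an inhibitory G protein alpha subunit, had 54.0 RPM in the IP and 6.64 RPM in the input of BKO iBAT, against 6.14 and 4.87 RPM in flox/flox iBAT (2.69, 1.75 to 3.63). *Cdkn1a*, the cyclin-dependent kinase inhibitor p21, had 16 and 1.94 RPM in BKO and 3.73 and 2.83 RPM in flox/flox iBAT (2.65, 1.29 to 4.0), on 25 and 24 input reads. In both genes the flox/flox IP was barely above its input. *Idh2*, the mitochondrial NADP-dependent isocitrate dehydrogenase, rested on more reads, with 82.8 and 13.8 RPM in BKO and 15.8 and 13.0 RPM in flox/flox iBAT (2.31, 1.71 to 2.91). *Kank3*, an ankyrin-repeat protein gene, had the most reads of the 10, with 203 and 36.2 RPM in BKO and 32.9 and 31.8 RPM in flox/flox iBAT (2.44, 2.05 to 2.83). Its region, in a 5′ UTR exon, lay 6556 bases from the closest annotated start, which may be that of another gene. For *Idh2* and *Kank3* the inputs of both genotypes differed little and the IP of BKO iBAT was the single high value. *Twnk*, the helicase of mitochondrial DNA, had 14.9 and 2.24 RPM in BKO and 4.45 and 3.74 RPM in flox/flox iBAT (2.48, 1.25 to 3.72). *Ppp1ca*, the catalytic subunit of protein phosphatase 1, was one of the few called in both genotypes, with fold enrichments of 8.50 in BKO and 1.67 in flox/flox iBAT. *Copz2*, a coatomer subunit, had fold enrichments of 8.73 in BKO and 1.41 in flox/flox iBAT, and *Efnb1*, an ephrin ligand, 6.26 in BKO and 1.13 in flox/flox iBAT.

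The 10 lowest ratios lay over *Ptrh2*, *Gm10076*, *Slc26a6*, *Ndufa1*, *Fcor*, *Pigyl*, *Zfhx3*, *Vamp8*, *Timm13* and *Atp5e*, from -5.08 to -2.56. Of these, 9 had a lower IP level and 9 a higher input level in BKO, and 8 were called in both genotypes. *Ptrh2*, a mitochondrial peptidyl-tRNA hydrolase, had 87.4 RPM in the IP and 46.0 RPM in the input of BKO iBAT, against 415 and 6.46 RPM in flox/flox iBAT, for a log2 ratio of -5.08 (-5.65 to -4.51). Its flox/flox fold enrichment of 64.2 was the highest of the regions with at least 20 input reads there, on 56 of them, and in BKO it was 1.90. Both the lower IP and the higher input of BKO entered this ratio. The *Ptrh2* region, in a 5′ UTR exon, lay 5908 bases from the closest annotated start. *Slc26a6*, an anion exchanger, had 5.33 and 2.09 RPM in BKO and 92.7 and 2.83 RPM in flox/flox iBAT (-3.68, -4.89 to -2.48) and was called in flox/flox only. Here the inputs were close and the IP alone differed. *Ndufa1*, a small subunit of respiratory complex I, had 64.1 and 32.6 RPM in BKO and 125 and 5.55 RPM in flox/flox iBAT (-3.51, -4.14 to -2.88). *Fcor*, a corepressor of FOXO1 expressed in adipose tissue, had 93.7 and 19.5 RPM in BKO and 140 and 3.06 RPM in flox/flox iBAT (-3.25, -4.08 to -2.43). In *Ndufa1* and *Fcor* the input of BKO was several times that of flox/flox iBAT. *Zfhx3*, a homeodomain zinc finger factor whose region also lies in an intron of another gene, had 10.7 and 8.51 RPM in BKO and 42.7 and 4.87 RPM in flox/flox iBAT (-2.80, -3.61 to -1.98). *Timm13*, a small chaperone of the mitochondrial intermembrane space, was the exception with an IP that was not lower, at 45.9 and 45 RPM in BKO and 43.0 and 6.91 RPM in flox/flox iBAT (-2.61, -3.21 to -2.01). *Vamp8*, a vesicle SNARE, had fold enrichments of 2.37 in BKO and 14.8 in flox/flox iBAT, and *Pigyl*, which acts in GPI anchor synthesis, 1.51 and 11.3. *Gm10076* is annotated by RefSeq as a pseudogene, and its reads (39.4 and 18.1 RPM in BKO, 123 and 2.61 RPM in flox/flox iBAT) may come from a near-identical copy.

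**Figure D3:**
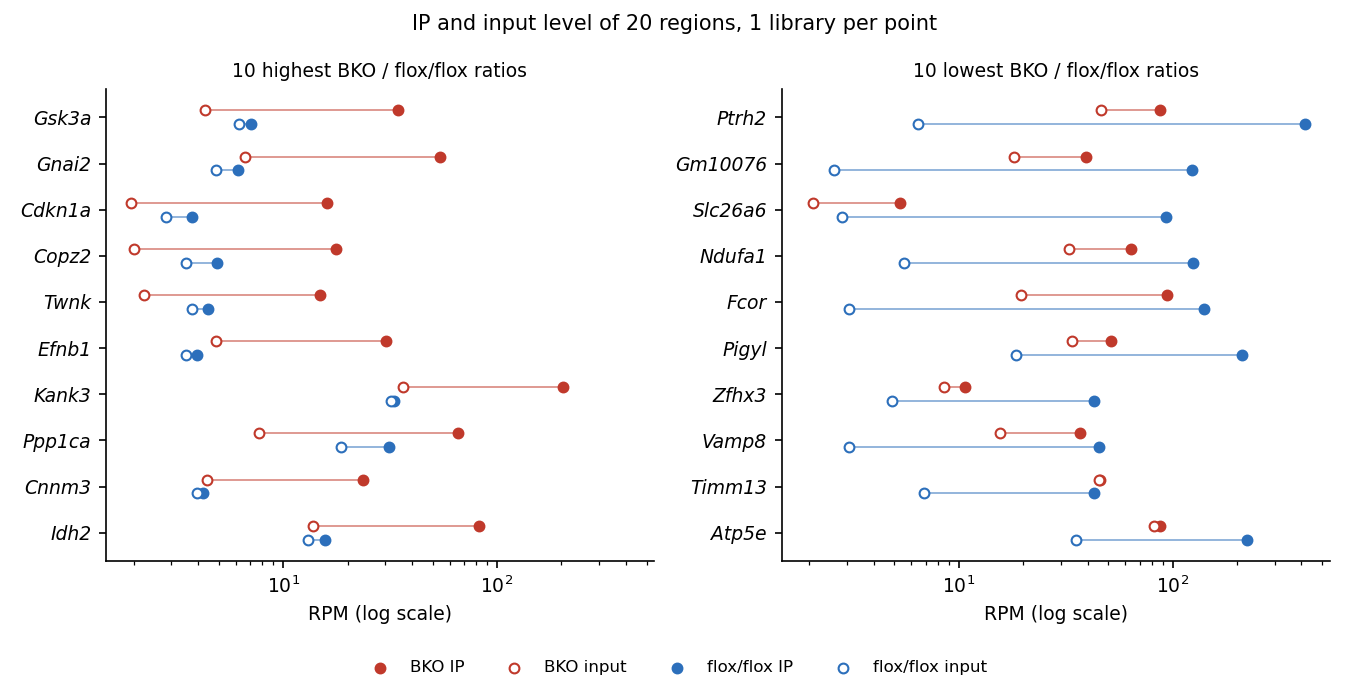
IP level (filled) and input level (open) in RPM on a log axis for the 10 regions with the highest (left) and the 10 with the lowest (right) BKO to flox/flox ratio where both inputs held 20 reads or more, with BKO in red above flox/flox in blue and 1 library per point. On the left the BKO IP stands away from 3 low points in most rows, while on the right the flox/flox IP is high and the flox/flox input is the lowest point in 9 of 10 rows.

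The highest fold enrichments within 1 genotype belonged to different genes. Among regions called in BKO with at least 20 input reads there, *Rap1b*, a RAS-related GTPase, came first with 18.4, against 2.04 in flox/flox iBAT (log2 ratio 3.17, 1.64 to 4.71, on 12 flox/flox input reads). *Tnnc2*, the troponin C of fast skeletal muscle, followed with 17.0 on 26 input reads, but had no input read in flox/flox iBAT. *Arl4d*, an ARF-like GTPase, had 16.6 in BKO and 4.70 in flox/flox iBAT, *Ranbp1*, a partner of the nuclear transport GTPase RAN, 14.9 and 12.6, and *Oaz2*, an ornithine decarboxylase antizyme, 12.5 and 5.37. *Ssbp3*, a single-stranded DNA-binding protein gene, had 14.3 and 1.06, the highest ratio of these 10 (log2 3.75, 2.21 to 5.29, on 18 flox/flox input reads). *Tnfaip8l1* had 16.3 and 10.9, *Wbp1l* 13.6 and 1.91, *AI837181* 12.6 and 3.90, and *Spaar* 13.2 and 14.1, so that a high BKO enrichment came with a high as well as a low flox/flox enrichment. In flox/flox iBAT, *Ptrh2*, *Gm10076*, *Fcor*, *Slc26a6* and *Ndufa1* were followed by *Ndufb7* (3.64 in BKO, 20.1 in flox/flox iBAT), *Ndufs6* (5.41 and 19.4), *Lamb3* (6.62 and 16.7), *Nedd8* (5.4 and 15.9) and *S100a1* (4.33 and 15.6). Of these 10, 9 were called in both genotypes and all had log2 ratios of -1.34 or lower. Each ranking used 1 side of the ratio. Low ratios in the flox/flox group and high ratios in the BKO group are thus partly built into the choice.

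The regions with the most IP reads were those of *Adipoq*, *Cox8b*, *Gm20721*, *Gm10053* and *Cst3* in BKO iBAT. In flox/flox iBAT *Ptrh2*, described above, took the place of *Adipoq*. *Adipoq*, the adipocyte hormone adiponectin, had 423 RPM in the IP and 301 RPM in the input of BKO iBAT, against 147 and 118 RPM in flox/flox iBAT, for fold enrichments of 1.41 and 1.25 and a log2 ratio of 0.17 (-0.02 to 0.36). *Cox8b*, a brown fat isoform of a cytochrome c oxidase subunit, had 341 and 164 RPM in BKO and 998 and 149 RPM in flox/flox iBAT (-1.69, -1.84 to -1.53). *Adipoq* was higher in both BKO libraries, whereas *Cox8b* had near-equal inputs and a lower BKO IP. *Cst3*, the protease inhibitor cystatin C, had 301 and 289 RPM in BKO and 244 and 182 RPM in flox/flox iBAT (-0.37, -0.53 to -0.21). Fold enrichments in this group were 1.04 to 3.17 in BKO, and in flox/flox iBAT they ran up to 6.69 in *Cox8b*, 13.7 in *Gm10053* and 64.2 in *Ptrh2*. *Gm20721* had a log2 ratio of -0.61 and *Gm10053*, a pseudogene in RefSeq, of -2.11, and reads of such loci may belong to near-identical genes.

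Genes with a region at both ends allowed the 5′ and 3′ regions of 1 gene to be set side by side, though these need not lie on the same transcript. In 294 genes with such a region and another region in the last exon or 3′ UTR (that with the most input reads was taken at each end), the log2 ratio was higher at the 5′ than at the 3′ end in 266 and lower in 28. The median log2 ratio was 0.83 at the 5′ end and -2.0 at the 3′ end, and the median difference within a gene was 2.42. In 168 genes the 5′ region was higher and the 3′ region lower in BKO, in 91 both were lower, in 32 both were higher, and in 3 the 5′ region was lower and the 3′ region higher. Those 3 were *Wnt5a*, *Ppp2r3a* and *C1qtnf9*. The median fold enrichment at the 5′ end was 4.06 in BKO and 2.20 in flox/flox iBAT, and at the 3′ end 1.88 in BKO and 7.42 in flox/flox iBAT. The 5′ region was the more enriched in 235 genes in BKO and in 63 in flox/flox iBAT. The IP ratio had medians of 2.1 at the 5′ end and -1.36 at the 3′ end, with a median difference of 3.18. The input ratio was also higher at the 5′ end in 193 genes (medians 1.35 and 0.74, median difference 0.66), which lowers the enrichment ratio there. With at least 20 input reads in all libraries at both ends, 81 of 86 genes had the higher ratio at the 5′ end, with medians of 0.56 and -1.85. Where the 5′ region had been called in both genotypes, this held for 59 of 68 genes, with medians of -0.47 and -2.20. Calls at the 3′ end were not restricted. Of the 785 5′ regions 535 were called in BKO only, against 1335 of the 5569 regions in last exons and 3′ UTRs. The difference between the ends is thus partly set by the genotype through which a region was listed.

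*Jtb*, a transmembrane protein gene, had 54.6 RPM in the IP and 14 RPM in the input of BKO iBAT at its 5′ region, against 18.3 and 18.2 RPM in flox/flox iBAT. At its 3′ region the levels were 71.7 and 36.1 RPM in BKO and 351 and 7.14 RPM in flox/flox iBAT, so the log2 ratio was 1.96 at the 5′ and -4.63 at the 3′ end. Enrichment in BKO was highest at the 5′ end and enrichment in flox/flox iBAT only at the 3′ end. *Dnajc15*, a mitochondrial co-chaperone, had fold enrichments of 3.04 in BKO and 1.73 in flox/flox iBAT at the 5′ end, and 1.18 and 61.7 at the 3′ end (log2 ratios 0.82 and -5.71). *Dbp*, a circadian transcription factor, had 4.34 and 1.01 at the 5′ end and 1.40 and 7.11 at the 3′ end (2.1 and -2.34). *Twnk* had 6.65 and 1.19 at the 5′ end and 3.51 and 19.8 at the 3′ end (2.48 and -2.49). In these genes the sign differed between the regions at the ends of the same gene. *Nnmt*, nicotinamide N-methyltransferase, (1.03 and -3.50), *Cnnm3* (2.34 and -2.73), *Arxes2*, an adipocyte gene of the X chromosome, (2.25 and -1.83) and *Cd74*, which chaperones MHC class II molecules, (1.80 and -1.17) had the same arrangement. For *Adipoq* the 5′ region had fold enrichments of 1.41 in BKO and 1.25 in flox/flox iBAT and the 3′ region 1.33 and 5.81 (0.17 and -2.12), so the genotypes were close at the 5′ end and apart at the 3′ end. *Gadd45gip1*, a mitochondrial ribosome component, was alike at the 5′ end (1.68 and 1.72) and apart at the 3′ end (1.30 and 53.0). *Gnai2* was higher at both ends (2.69 and 0.22), and *Ebf1*, an adipocyte transcription factor, lower at both by about the same ratio (-1.46 and -1.60). *Ndufb7* was an exception, lower at the 5′ end (-2.47) than at the 3′ end (-1.59).

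**Figure D4:**
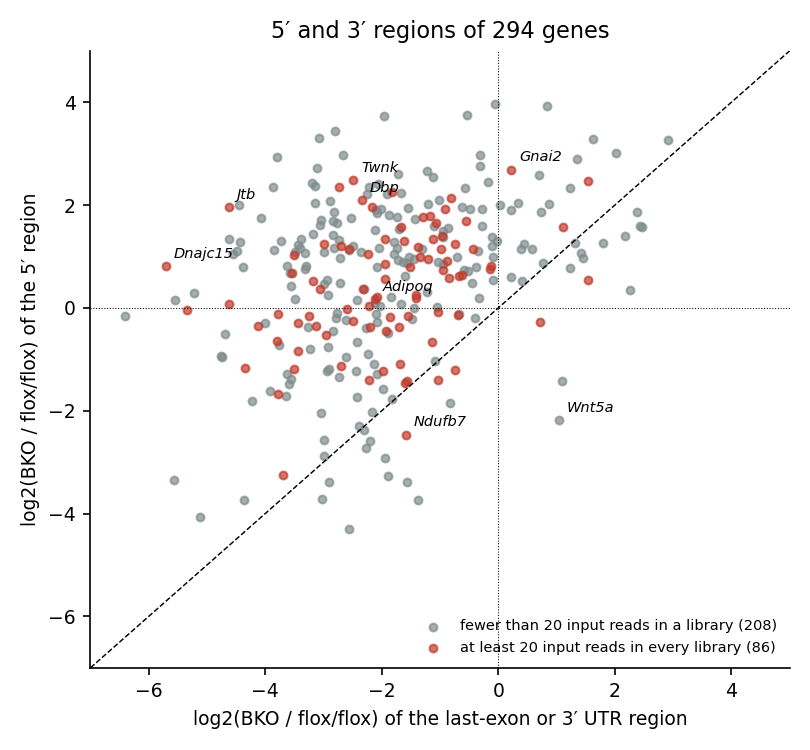
Log2 BKO to flox/flox ratio of fold enrichment at the 5′ region (vertical axis) against that at the last-exon or 3′ UTR region (horizontal axis) of the same gene, 1 point per gene, in red where all libraries had at least 20 input reads at both ends. The dashed line marks equal ratios and 266 of 294 points lie above it; 168 lie in the upper left, higher at the 5′ and lower at the 3′ end in BKO.

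Genes of oxidative phosphorylation, the respiratory chain and ATP synthase of mitochondria, were common here, and most had a lower ratio in BKO. Of 67 regions over such genes, 30 (44.8%) were 5′ regions, against 8.49% of all regions. Of the 30, 23 had a lower and 7 a higher ratio in BKO, with a median of -0.48 beside 0.62 for all 785 regions and -1.05 for all regions of the table. They had more reads than most (median 410 input reads in BKO and 114 in flox/flox iBAT), and 26 were called in both genotypes. The 216 5′ regions called in both had a median of -0.64, with 152 lower, so the list lay near the 5′ regions of like calls. The counting interval lay below 0 in 16 (44.6% of all regions) and above 0 in 5 (12% of all), and 12 were at least 2-fold lower (50.8% of all) and 2 at least 2-fold higher (18.6% of all). The median log2 ratio was -0.13 for the IP and 0.54 for the input. Among complex I subunits, *Ndufb11* had 189 RPM in the IP and 106 RPM in the input of BKO iBAT, against 233 and 52.2 RPM in flox/flox iBAT (-1.32, -1.56 to -1.07), and *Ndufc2* had 232 and 90.6 RPM against 210 and 61.3 RPM (-0.42, -0.66 to -0.18). *Ndufa1* and *Ndufb7* were the lowest of this complex (-3.51 and -2.47). For *Ndufb11* and *Ndufc2* the IPs were close and the BKO input was the higher one. In ATP synthase, 1 region of *Atp5e*, the epsilon subunit, had 87.6 and 82.2 RPM in BKO and 223 and 35.5 RPM in flox/flox iBAT (-2.56, -2.86 to -2.27), and the other had a log2 ratio of -0.79 (-1.11 to -0.46). *Atp5a1*, the alpha subunit, had a ratio of -0.37 whose interval (-1.32 to 0.59) included 0. Of complex IV, *Cox5a* was higher, with 159 and 63.7 RPM in BKO and 92.7 and 60.2 RPM in flox/flox iBAT (0.70, 0.42 to 0.97), unlike *Cox8b*. *Ndufc1* (1.15, 0.38 to 1.92) and a region shared by *Sdhd*, of complex II, and *Timm8b* (1.74, 1.13 to 2.35) were the 2 that were at least 2-fold higher. The 15 last-exon and 3′ UTR regions of this gene list were all lower, with a median of -2.40. Of all 5569 such regions 4006 were lower, with a median of -1.29.

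Other mitochondrial and translation genes were mixed. The 8 regions over mitochondrial ribosomal protein genes had a median of -0.46, with 5 lower and 3 higher. *Mrpl57* had 72.0 RPM in the IP and 45.2 RPM in the input of BKO iBAT, against 175 and 35.7 RPM in flox/flox iBAT (-1.62, -1.94 to -1.29), whereas *Mrpl51* had 51.4 and 38.6 RPM against 14.6 and 8.95 RPM, for a ratio of -0.29 whose interval (-0.91 to 0.33) included 0. In *Mrpl51* the IP and the input were higher in BKO together. Of the 10 regions over translation factor genes, 5 were higher and 5 lower (median 0.29). *Eif5a*, which helps ribosomes through difficult peptide bonds, was higher (1.27, 0.40 to 2.15), as was *Eif4ebp1*, the inhibitor of cap binding by eIF4E (0.59, 0.18 to 0.99), while *Pabpc4*, a poly(A)-binding protein gene, was lower (-2.10, -2.72 to -1.47). *Eif1*, which acts in start codon selection, had fold enrichments of 2.22 in BKO and 2.28 in flox/flox iBAT. Of 25 regions over cytosolic ribosomal protein genes, 1 (4%, against 8.49% of all regions) was a 5′ region (*Rps27l*, -1.94, -4.51 to 0.62). All 5 regions over chaperone genes had ratios above 0 (median 0.82), among them *Dnajc15* (0.82, 0.36 to 1.27) and *Hspb1*, a small heat shock protein gene (0.04, -0.67 to 0.76). Of these 5, 3 were called in BKO only and 2 had an interval above 0, while 65.4% of all 785 regions had ratios above 0.

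Adipocyte and immune genes had few 5′ regions each, most with ratios above 0. Ratios above 0 were also held by 65.4% of all 785 regions and by 83.6% of the 535 called in BKO only. Of the lipid metabolism regions 3 of 4, and of the immune regions 4 of 6, were called in BKO only. The counting interval lay above 0 in 1 region of each list. All 4 regions over lipid metabolism genes had ratios above 0 (median 0.99), with *Fabp5*, a fatty acid binding protein gene, at 35.9 and 7.91 RPM in BKO and 4.69 and 3.51 RPM in flox/flox iBAT (1.76, 0.71 to 2.82), and *Plin1*, the perilipin of lipid droplets, at 65.1 and 15.6 RPM in BKO and 9.27 and 2.61 RPM in flox/flox iBAT (0.23, -0.77 to 1.23). For *Plin1* both BKO libraries were several times the flox/flox ones and the ratio was close to 0. Of 3 regions over thermogenic genes, *Ucp3*, a mitochondrial carrier of the uncoupling protein family, had 41.0 and 7.24 RPM in BKO and 2.05 and 1.70 RPM in flox/flox iBAT (2.23, 0.75 to 3.72), and *Ucp2*, of the same family, 9.13 and 2.02 RPM in BKO and 1.32 and 1.25 RPM in flox/flox iBAT (2.09, 0.19 to 4.0), both on few flox/flox input reads, while *Cox8b* was lower. Of 3 regions over brown fat transcription factor genes, *Ebf3* (1.34, 0.04 to 2.64) and *Tfam*, which maintains mitochondrial DNA (1.20, -0.95 to 3.34), had ratios above 0 and *Ebf1* was lower. Of 2 over white adipocyte genes, *Retn*, the hormone resistin, had 156 and 68.1 RPM in BKO and 50.5 and 23.2 RPM in flox/flox iBAT, for a ratio of 0.07 (-0.30 to 0.45), and a region over *Blcap* and *Nnat* a ratio of 1.93. Of 6 regions over immune genes, 5 had ratios above 0 (median 0.98). *Cd74* had 83.6 and 12.8 RPM in BKO and 10.5 and 5.55 RPM in flox/flox iBAT (1.80, 1.01 to 2.58), and *Lyz2*, the lysozyme of macrophages, had 97.8 and 16.8 RPM in BKO and 14.1 and 1.02 RPM in flox/flox iBAT (-1.25, -2.66 to 0.17). The input under both was higher in BKO, as it was under all 7 regions of the immune marker genes (272 RPM in BKO and 130 RPM in flox/flox iBAT in sum). The 34 regions of the whole immune list summed to 2175 RPM in BKO and 1864 RPM in flox/flox iBAT, and 30 were higher in BKO. *Adgre1*, *Cd68* and *Ptprc* of this marker list had no region. How much of these ratios comes with other cell types was not tested.

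**Figure D5:**
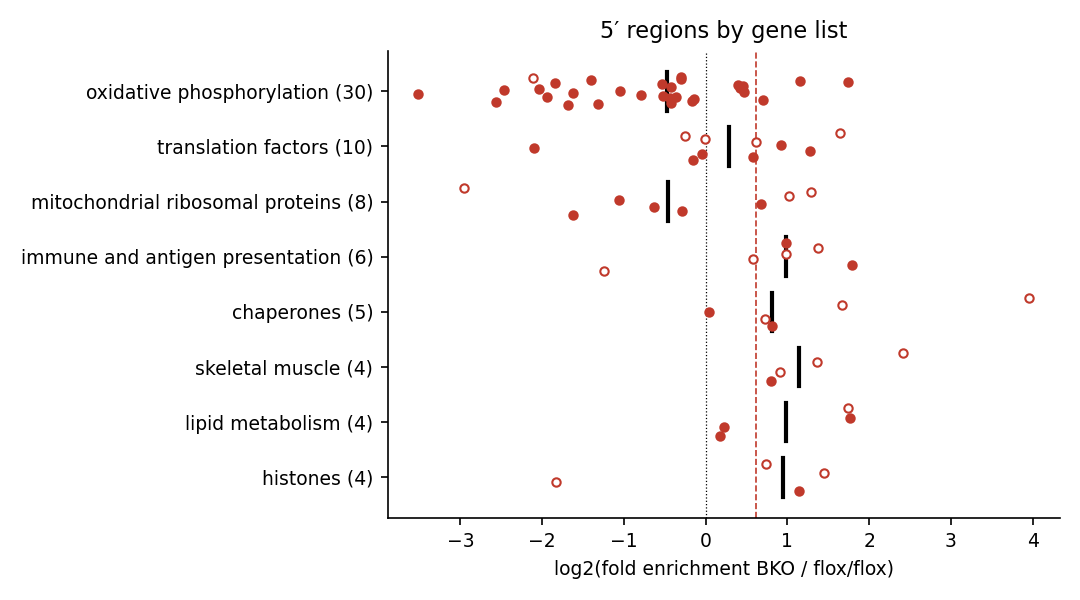
Log2 BKO to flox/flox ratio of fold enrichment (horizontal axis) of each 5′ region in the gene lists with at least 4 such regions (number in parentheses), filled where both inputs had at least 20 reads and open otherwise. Black bars are list medians and the red dashed line is the median of all 785 regions, 0.62; oxidative phosphorylation (-0.48) and mitochondrial ribosomal proteins (-0.46) have medians below 0.

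Muscle transcripts were scarce in flox/flox iBAT. The 4 regions over skeletal muscle genes were called in BKO only. They were thus listed through BKO iBAT, where their levels were high, so their higher BKO levels are partly set by how regions were listed. *Pvalb*, the calcium buffer parvalbumin, had 155 RPM in the IP and 56.4 RPM in the input of BKO iBAT, against 4.45 and 2.83 RPM in flox/flox iBAT, for a ratio of 0.80 (-0.24 to 1.85). *Mb*, myoglobin, had 1112 IP and 326 input reads in BKO and 4 and 2 reads in flox/flox iBAT, and *Tnnt3*, a fast troponin T, had 87.6 and 10.7 RPM in BKO and 1.81 and 0.57 RPM in flox/flox iBAT. All 4 were far higher in both BKO libraries, and none had a counting interval of the ratio that left out 0. *Lmod2*, *Smpx* and *Sln*, muscle genes outside the list, had the same form, with 124, 112 and 105 input reads in BKO and none in flox/flox iBAT. The source of the muscle reads was not tested.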

How the data were processed

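Sequenced reads were trimmed with skewer by the authors, mapped with BWA (0.7.12-r1039) to GRCm38 and used to call peaks with MACS2 (2.1.0). Not given in the sources used here is how peaks of both genotypes were joined, how reads were counted and from which base positions count. The deposited table gives, for each region, whole read counts of the 4 libraries, RPM values that the authors made as the count plus 1 scaled to the library total, a fold enrichment ratio of IP over input RPM, other marks of a call per genotype, and the distance to the closest start; all listed regions have a fold enrichment above 1 in both genotypes. Columns named CON were read as flox/flox and KO as BKO. The column with the authors' comparison (a log2 fold change) was not used.

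Rows were collapsed to distinct regions, and log2 ratios were recomputed from the fold enrichments as BKO over flox/flox with Python 3.11.15, pandas 2.3.3, NumPy 2.4.6 and SciPy 1.17.1. Intervals (95%) were set on the log scale from counts plus 1, taking 2 reads as 1 fragment. This was done because counts of 1 to 20 under these regions were mostly even. The even share was 87.5% in the BKO IP, 89.4% in the BKO input and 96.3% in both flox/flox libraries. On counts simulated with the same 2 reads per fragment, 95.7% of intervals over 785 regions held the true ratio. That checks the calculation and not whether the real counts follow this model. With 1 library per group no test was run. Named genes were the 10 highest and 10 lowest ratios where both inputs held 20 reads or more, the 10 highest fold enrichments of each genotype, the 5 regions with the most IP reads per genotype, the members of 20 gene lists and, where both inputs held 20 reads or more, the regions nearest to a 2-fold change; the same-gene examples, *Cox5a*, *Atp5a1*, *Ndufc1*, *Sdhd* with *Timm8b*, *Lmod2*, *Smpx*, *Sln*, *Lamtor4*, *Foxo6*, *Wnt5a*, *Ppp2r3a* and *C1qtnf9* were chosen after their values were seen. The regions and lists were chosen with earlier results of these data known. Alternatives changed the input filter, the labels, genes per region, centring, the pseudocount, thresholds and the calls counted. Start sequences came from RefSeq (GRCm38.p6), of which 1 start per gene entry was used.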

Additional observations from a re-analysis of the deposited data

How the results depend on the processing

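Of 39 recomputed values, 19 stayed within the interval of, or within 1.5 times, the value reported. The regions with the clearest dependence were those called in both genotypes, where the median log2 ratio was -0.64, a change of sign; this choice, the requirement of 100 input reads and the split by label were added after the data were seen. The median was 0.41 where both inputs held 20 reads or more and 0.24 (-0.14 to 0.53, 73 regions) where they held 100 or more, 0.46 with 1 added to each fold enrichment, and 1.67 when centred on the median of all regions (-1.05). The IP median was 0.92 with at least 20 input reads and 2.14 when centred, and the input median 0.67 and 0.54. At least 2-fold higher were 82 of 275 regions (29.8%) with at least 20 input reads, 521 when centred and 110 at a 4-fold threshold, and at least 2-fold lower 51 (18.5%), 60 and 62. The share of BKO peaks was 12.5% with a fold enrichment of at least 2, 7.54% with at least 20 input reads and 10.2% where every label was 5′, and the share of regions within 300 bases of a start 79.7% from the nearest base and 68.0% with at least 20 input reads. The search for DRACH-type motifs over whole regions was not run, as no genome was used here. No paired analysis was possible because each genotype had 1 IP and 1 input library. Few flox/flox input reads limit most single ratios: the interval of 507 of the 785 regions included 0.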

Other observations

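Some 5′ regions lay over small groups of genes not described above. Of 4 regions over histone genes, 3 had ratios above 0 (median 0.94), against 65.4% of all 785 regions. *H1f0*, a linker histone gene, had 123 RPM in the IP and 34.6 RPM in the input of BKO iBAT, against 21.4 and 13.3 RPM in flox/flox iBAT (log2 ratio 1.14, 0.62 to 1.66), and *Hist1h2bc*, a core histone gene, had 68.9 and 9.56 RPM against 49.2 and 1.93 RPM (-1.83, -2.88 to -0.77). In *Hist1h2bc* the BKO IP was higher and the BKO input higher still. Zinc finger factor genes, with 284 regions in the table, had 3 at the 5′ end (1.06%, against 8.49% of all regions). The 33 regions over immediate early and stress genes had none, on a small number of regions. Of the m6A and m6Am machinery, the 5′ region was that of *Pcif1*, the enzyme that makes m6Am, with 10.3 and 2.91 RPM in BKO and 9.51 and 3.06 RPM in flox/flox iBAT (0.19, -0.96 to 1.33). All 4 libraries of *Pcif1* differed little between the genotypes. Of insulin signalling genes *Gsk3a* and of circadian genes *Dbp* had a 5′ region, both described above.

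Of the regions over genes of other cell types, 2 of 7 for Schwann cell, 2 of 32 for endothelial and 1 of 24 for fibroblast and matrix genes were 5′ regions. These are 28.6%, 6.25% and 4.17%, against 8.49% of all regions, and rest on too few regions to set the cell types apart. *Cldn5*, the tight junction claudin of endothelial cells, had 33.3 and 13.2 RPM in BKO and 15.5 and 10.3 RPM in flox/flox iBAT (0.74, 0.09 to 1.40), and *Egfl7*, of the same cells, a ratio of -0.14. The input of both was higher in BKO, whereas the 32 regions of the endothelial list summed to 693 RPM in BKO and 874 RPM in flox/flox iBAT, and the marker regions to 172 and 275 RPM, with 2 of 6 higher in BKO. *Col6a1*, a matrix collagen gene, had 15.5 and 6.05 RPM in BKO and 0.60 and 0.57 RPM in flox/flox iBAT (1.27, -1.31 to 3.85). Of Schwann cell genes, *S100b* was lower (-2.57, -3.66 to -1.47) and *Pmp22* had a ratio of 0.63 (-2.39 to 3.64). The extreme ratios of all 785 regions rested on an input without reads: *Lamtor4* (-6.29) had no input read in flox/flox iBAT and *Foxo6* (6.60) none in BKO iBAT, so both depend on the 1 added to each count.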
